A study of Drosophila melanogaster with 8 samples.

Results

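The members described here are the listed transcripts of 3 genes of the EGF and FGF signalling systems of Drosophila melanogaster. They are vein (vn, FBgn0003984), which encodes a ligand of the EGF receptor, branchless (bnl, FBgn0014135), which encodes an FGF ligand, and heartless (htl, FBgn0010389), which encodes an FGF receptor. They were chosen by gene symbol from the authors' deposited table of transcripts that differed at least 1.5-fold between genotypes, which gave 4 transcripts (vn-PA, vn-PB, bnl-PA and htl-PB) of the 4379 in that table and of the 16637 measured. The RefSeq gene table places vn on chromosome arm 3L and bnl and htl on 3R, and holds 2 transcripts for vn, 3 for bnl and 3 for htl. Any other transcripts of bnl or htl on the array are not named in the files used here and were not analysed as members.

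RNA came from wing imaginal discs of third-instar larvae, the larval tissue from which the adult wing and notum develop, and was measured on 1-colour arrays. The wildtype group was Oregon R (4 arrays) and the other group carried a homozygous mutation of BEAF-32 (4 arrays), the gene of a chromatin boundary protein. The 2 groups were age-matched. The strain field of the mutant arrays also reads Oregon R, and the labels do not give the mutant allele, its background or how many larvae were pooled. A single mutant genotype was measured, and effects of losing BEAF-32 cannot be told apart from other differences between the stocks.

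The EGF and FGF systems both work through receptor tyrosine kinases that switch on the Ras and MAP kinase cascade. Vn is a secreted, neuregulin-like ligand made mainly in the future notum of the early disc, where it helps to set notum identity, and later in part of the future wing blade. Bnl is made by small groups of disc cells and attracts cells of the tracheal system, which carry the receptor Breathless (btl) and form the air sac that lies on the disc. Htl is a different receptor: its ligands are Pyramus and Thisbe, and in the wing disc it marks the muscle precursors that lie under the notum. The ligand bnl and the receptor htl therefore belong to different ligand and receptor pairs. No sequences are printed, since none was at hand for these genes.

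Values are the authors' log2 expression values, 1 per transcript and array. Arrays are named by the pair of numbers in their titles, such as 1_2. Arrays of 1 genotype that share the first number correlated at 0.9977 to 0.9986 over all transcripts, against 0.9662 to 0.987 for arrays of 1 genotype with different first numbers. They were averaged into 2 replicates per genotype, and each mean is given ± SD over those replicates (n = 2). The series design names 2 biological and 2 experimental replicates, without saying which number of the titles marks which. Averaging by the first number is therefore a choice. The larvae or dissections behind the replicates are not described. The spread of the averaged replicates, and the p-values that rest on it, may be technical. The BEAF-32 transcript itself lay at 8.40 to 8.49 on the mutant arrays. It read 10.09, 11.94, 10.28 and 10.15 on the wildtype arrays 1_1, 1_2, 2_1 and 2_2, so that array 1_2 stood 1.86 above the other array of its replicate. Of 23 wing disc marker genes 10 were in the authors' table, and the other 13, among them vg and nub, have no name in the files used here. The 10 lay between 9.73 and 13.80 in the wildtype replicates.

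The comparison asks how expression in the disc differs when BEAF-32 is lost. In the mutant the ligand genes vn and bnl were higher and the receptor gene htl was lower than in wildtype. The members were chosen from this contrast, so their differences are given as a description and without a test. All 4 transcripts were separated between genotypes, with no overlap among the 4 arrays of each, as were 51.1% of all transcripts (26.8% higher and 24.4% lower in the mutant). All 4 also passed limma at an adjusted p under 0.05, as did 9.97% of all transcripts (3.89% higher and 6.08% lower). Without mutant replicate 1 or 2 limma called 0 of the 4, while all 4 had an unadjusted p under 0.05. Neither count is evidence about the members, because the table they come from was selected by size of change: in it 90.0% of transcripts had no overlap and 37.9% passed.

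Of the ligands, bnl-PA differed most. In wildtype it read 7.90, 7.94, 8.10 and 8.05 on arrays 1_1, 1_2, 2_1 and 2_2, and in the mutant it read 11.04, 11.16, 10.82 and 10.72. The lowest mutant array lay 2.62 above the highest wildtype array. The means were 8.0 ± 0.11 and 10.94 ± 0.23, a log2 difference of 2.94 (SE 0.17), which is 7.67-fold. In wildtype bnl-PA lay close to the floor of the arrays, 1.06 to 1.25 above the lowest value of each, and in the mutant it lay 3.85 to 4.33 above it. No detection call per probe was at hand, so that whether bnl-PA was above background in wildtype is not known here. By size, its difference ranked 112 among 16637 transcripts and 41 among those higher in the mutant.

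The EGF receptor ligand gene vn was listed under transcripts vn-PA and vn-PB. For vn-PB the wildtype arrays 1_1, 1_2, 2_1 and 2_2 read 11.97, 11.98, 11.88 and 11.92, and the mutant arrays 12.92, 12.93, 12.69 and 12.78. The log2 difference was 0.89 (SE 0.13), or 1.86-fold, from 11.94 ± 0.05 to 12.83 ± 0.13. For vn-PA the wildtype arrays read 11.53, 11.58, 11.10 and 10.98 in the same order, and the mutant arrays 12.81, 12.66, 12.52 and 12.43. Its log2 difference was 1.31 (SE 0.23), or 2.47-fold, from 11.30 ± 0.36 to 12.61 ± 0.18. The wildtype replicates of vn-PA stood 0.51 apart, more than the mutant replicates (0.26) and more than the wildtype replicates of vn-PB (0.08). Against wildtype replicate 1 alone the vn-PA difference was 1.05, and against replicate 2 alone it was 1.56. For vn-PB these values were 0.85 and 0.93.

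The receptor gene htl went the other way. The wildtype arrays 1_1, 1_2, 2_1 and 2_2 read 10.03, 10.04, 10.14 and 9.90 for htl-PB, and the mutant arrays 8.62, 8.41, 8.65 and 8.56. The highest mutant array lay 1.26 below the lowest wildtype array. The means were 10.03 ± 0.01 and 8.56 ± 0.06, a log2 difference of -1.47 (SE 0.12), or 2.77-fold lower in the mutant. The 2 arrays of a replicate differed by up to 0.23 for htl-PB, more than the 2 replicate means of either genotype (0.02 and 0.09), so the SD of its wildtype mean is smaller than the spread between arrays. In whole discs, fewer cells of a type and less RNA per cell cannot be told apart. In the mutant htl-PB stood 1.57 to 1.81 above the lowest value of each array.

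**Figure D1:**
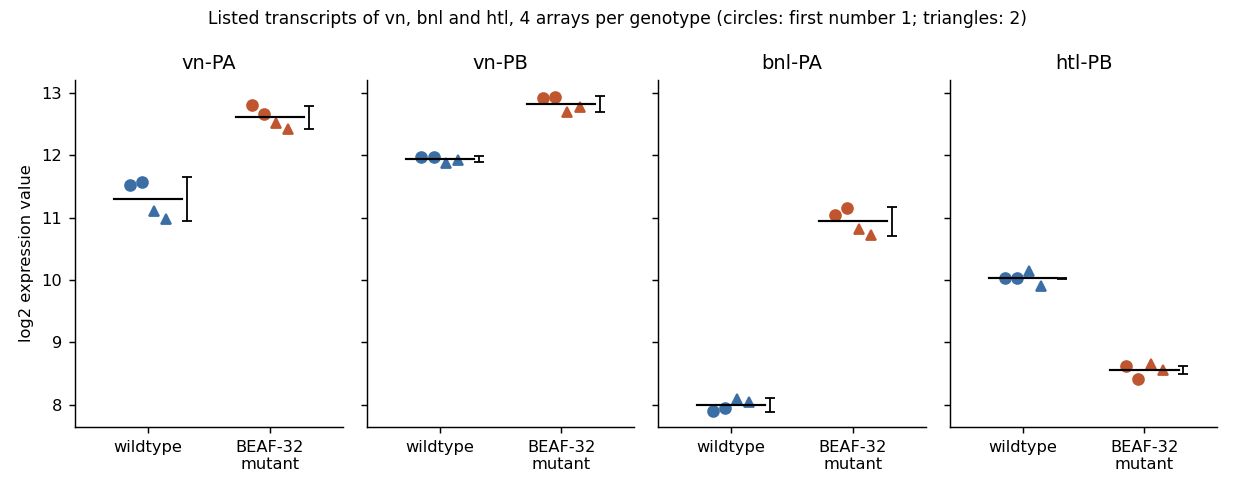
Log2 expression values (y axis) of the 4 listed transcripts in wildtype (blue) and BEAF-32 mutant (orange) discs, 1 point per array, with circles for first number 1 and triangles for 2; the line is the mean of the 2 replicates and the bar its SD (n = 2). No transcript has overlapping genotypes, and bnl-PA shows the widest gap, 2.62 between its nearest arrays.

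The deposited fold changes of these transcripts came to the same sizes. In the authors' deposited table they were 7.67 for bnl-PA, 2.77 for htl-PB, 2.47 for vn-PA and 1.86 for vn-PB. The member closest to the 1.5-fold limit was therefore vn-PB. Only 2 of the 12258 transcripts outside the table passed that limit in the value table, the larger at 1.543-fold, and neither has a name here.

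Whether the vn transcripts differed by unequal amounts was examined as vn-PA minus vn-PB within each array. The difference was -0.43, -0.40, -0.77 and -0.94 on the wildtype arrays 1_1, 1_2, 2_1 and 2_2, and -0.10, -0.27, -0.17 and -0.35 on the mutant arrays. The genotypes did not overlap, but mutant array 2_2 and wildtype array 1_2 stood only 0.05 apart. The replicate means moved by 0.41, from -0.64 ± 0.31 to -0.22 ± 0.05. An exact two-sided permutation test of 2 replicates against 2 can give no p below 0.333, which it gave here, so this test could not have shown the difference. Of 311 genes with exactly 2 listed transcripts, 304 had both transcripts on the same side of wildtype, as vn did, and 58 (18.6%) had transcripts further apart than vn. The probe design was not given in the sources used here, and probes of the transcripts may overlap.

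**Figure D2:**
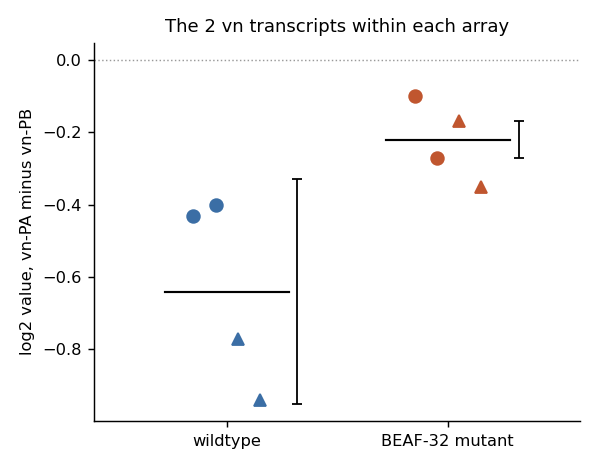
Log2 value of vn-PA minus that of vn-PB (y axis) on each array of wildtype (blue) and mutant (orange) discs, with circles for first number 1 and triangles for 2, the replicate mean as a line and its SD as a bar (n = 2). Wildtype arrays 2_1 and 2_2 lie lowest, at -0.77 and -0.94, and the mutant arrays lie between -0.35 and -0.10.

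Among the other genes of the EGF receptor pathway, 4 of 5 listed genes were higher in the mutant and 1 was lower. None of these 5 passed in limma at an adjusted p under 0.05, while 4 had an unadjusted p under 0.05. The whole list of 26 genes thus had 6 listed, of which only vn passed (1 of 6), where 37.9% of the transcripts in the authors' table did. The nearest to the threshold was spi, the gene of the main EGF receptor ligand Spitz, which read 13.33 ± 0.26 in wildtype discs and 14.27 ± 0.12 in mutant discs (a difference of 0.94 in log2, adjusted p = 0.054 in limma). The values for sty, which encodes the feedback inhibitor Sprouty, were 10.87 ± 0.40 and 11.88 ± 0.26 (1.01, limma adjusted p = 0.092). The calls for both depended on the setting: spi passed under 9 of 20 alternatives and sty under 5, among them the first number as a replicate block (limma adjusted p = 0.028 and 0.025). The values for the Ets repressor gene aop (yan) were 12.86 ± 0.17 and 13.49 ± 0.11 (0.63, limma adjusted p = 0.082). For the Ets activator gene pnt, which the cascade switches on, they were 10.53 ± 0.69 and 11.33 ± 0.01 (0.80, limma adjusted p = 0.23). The gene below wildtype was edl (mae), whose product binds the Ets proteins Yan and Pointed, at 11.33 ± 0.02 and 10.71 ± 0.13 (-0.62, limma adjusted p = 0.065). Without wildtype replicate 1, 4 of the 6 listed genes passed, without wildtype replicate 2 it was 3, and without mutant replicate 1 or 2 limma called 0 (2 and 4 at an unadjusted p under 0.05).

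The 5 genes other than vn had no overlap between genotypes, as had 90.0% of the transcripts in the authors' table. The median log2 difference of the 6 listed genes was 0.85, and 0.80 without vn, against 0.59 over all listed transcripts and 0.06 over all transcripts. Of the listed transcripts 2195 were higher and 2184 lower in the mutant. Their signed median therefore falls near the smallest rise listed, at the 1.5-fold limit, and is not a typical shift. The median size of their log2 difference without its sign was 0.89. The receptor gene Egfr, the ligand genes Krn and grk, and the protease genes rho and ru are not in the authors' table. Neither are the target genes aos and kek1. If on the array, all of these differed by no more than 1.543-fold, and their own values were not used here. Only genes past the 1.5-fold limit carry a name, so these counts describe a selected group.

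The same genes were compared between the wildtype replicates, which is not the contrast that chose the members. All 6 listed EGF receptor pathway genes were higher in wildtype replicate 1 than in replicate 2, as were 54.1% of all transcripts and 57.6% of listed ones. The gap was 0.97 for pnt, 0.57 for sty, 0.37 for spi, 0.24 for aop, 0.08 for vn-PB and 0.02 for edl. Its median over the 6 genes was 0.31, between the median absolute gap of all transcripts (0.26) and that of listed transcripts (0.40). For pnt the gap between wildtype replicates exceeded the difference between genotypes (0.80). Of the 5 listed FGF pathway genes 4 were higher in wildtype replicate 1, with a median gap of 0.03. The gap was 0.02 for htl-PB, and bnl-PA went the other way, at -0.16.

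In the FGF list of 21 genes, 5 were listed; bnl and 1 other passed as higher, htl passed as lower, and 2 (sty and pnt, given above) did not pass. That is 3 of 5, where 37.9% of the transcripts in the authors' table passed, and bnl and htl are among the 3 by choice. The other riser was dally, which encodes a heparan sulphate proteoglycan that acts as a co-receptor for several secreted ligands. It read 13.09 ± 0.02 in wildtype and 13.73 ± 0.04 in the mutant, a log2 difference of 0.64 (limma adjusted p = 0.049). This call was at the threshold: it held under 9 of 20 alternative settings, and without mutant array 1_1 the adjusted p was 0.055. In the list as a whole 4 genes were above wildtype and 1 below, with a median of 0.80. Without bnl and htl the 3 listed genes all lay above wildtype, and sty and pnt among them are also in the EGF receptor list. Without wildtype replicate 1, 4 of the 5 passed, and without mutant replicate 1 or 2 limma called 0 (2 and 3 at an unadjusted p under 0.05). The receptor gene btl, the Htl ligand genes pyr and ths and the adaptor gene stumps are not in the authors' table. If on the array, these partners of bnl and htl differed by no more than 1.543-fold, and their own values could not be described.

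Tracheal cells and muscle precursors lie on the disc and use these signals, so their markers are given beside bnl and htl. Of 11 tracheal markers 5 were listed: Gasp (1.57), serp (1.33) and verm (1.31), genes of chitin-binding or chitin-modifying proteins, rose in limma with adjusted p of 0.02, 0.015 and 0.015. The regulator gene dys fell by 1.70 on the log2 scale (limma adjusted p = 0.016). The values of vvl overlapped between genotypes, with a log2 difference of 0.61 (limma adjusted p = 0.53). The summed level of the 5 genes was taken as the log2 of added linear values. It was 14.25 to 14.39 on wildtype arrays and 15.46 to 15.61 on mutant arrays. The 5 genes were listed for a difference between genotypes, so this gap adds no support of its own. The defining tracheal genes trh and btl are not in the authors' table. If on the array, they differed by no more than 1.543-fold. Whether tracheal cells have a part in the bnl difference was not tested.

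Of 14 markers of adult muscle precursors 3 were listed, and all lay below wildtype. Beside htl these were hbs and rst, genes of cell adhesion proteins that act in myoblast fusion and in other tissues. The hbs-PA transcript fell from 12.22 ± 0.08 to 9.69 ± 0.04 (-2.53, limma adjusted p = 0.0069), and hbs-PB differed by -2.83. For rst the values were 12.16 ± 0.58 and 10.99 ± 0.23 (-1.16, limma adjusted p = 0.11). The summed level of the 3 genes was 13.10 to 13.60 on wildtype arrays and 11.53 to 11.83 on mutant arrays. These genes were listed for a difference between genotypes and include htl itself, so this gap adds no support of its own. The defining genes twi, Him and zfh1 are not in the authors' table. Transcripts outside it differed by no more than 1.543-fold, but whether these genes were on the array is not known here. The part of muscle precursor number in the lower htl level was not tested. Of 17 genes of differentiated muscle 6 were listed; TpnC73F (-1.78, limma adjusted p = 0.02) and wupA (-0.97, limma adjusted p = 0.033) fell. The other 4 did not pass by the transcript that represents each gene. They lay on both sides of wildtype: up at -0.94, sls at 1.61, Mlc1 at -0.89 and Mlp60A at 0.60. For up, the transcripts up-PD (-1.05, limma adjusted p = 0.03) and up-PG (-1.02, limma adjusted p = 0.031) did pass as lower. The transcripts up-PB, up-PE and up-PF lay below wildtype without passing.

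Markers of 3 other tissues moved with genotype in the same arrays. All 12 listed salivary gland genes fell, with a median of -4.79. Their first gene by p, Sgs5, read 14.64 to 14.86 on wildtype arrays, above at least 99.6% of transcripts. On mutant arrays it read 7.15 to 7.29. Of 10 listed fat body genes 9 lay below wildtype and 4 of these passed, with a median of -2.68 over the 10. FASN1, a fatty acid synthase gene, lay above wildtype (2.49, limma adjusted p = 0.08). The 2 mutant replicates stood up to 2.93 apart in this list, in Lsp1gamma (10.79 and 13.72). All 9 listed haemocyte genes lay above wildtype and 6 passed, with a median of 1.96. Of 10 listed wing disc genes 9 lay below wildtype, 6 of which passed, and 1 rose, with a median of -1.14. In the authors' table as a whole 37.9% of transcripts passed. The part of these tissues in the member values was not tested.

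**Figure D3:**
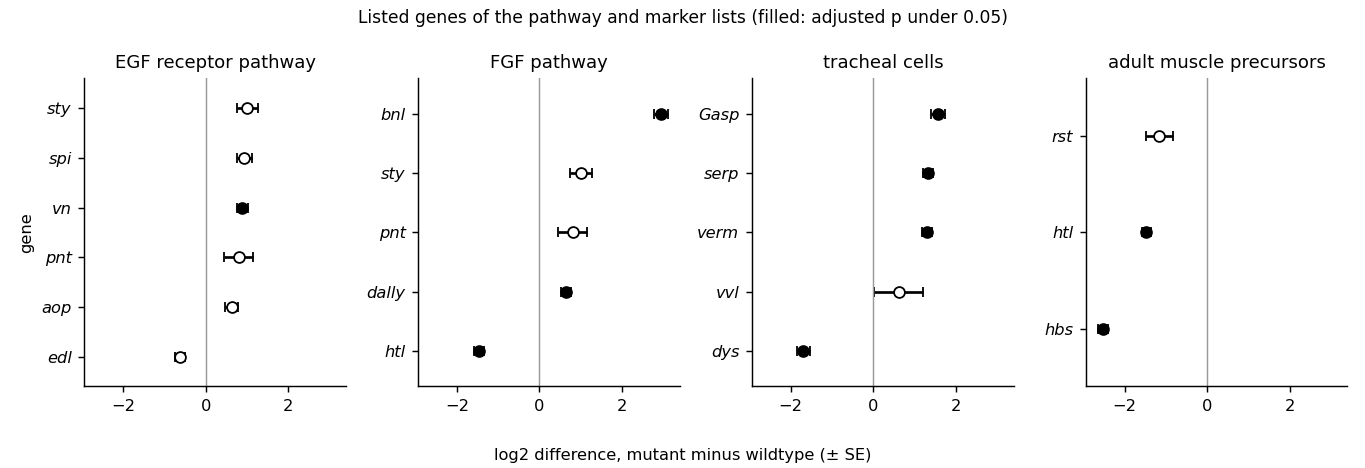
Log2 difference of mutant minus wildtype (x axis, ± SE from limma) for each listed gene (y axis) of the EGF receptor, FGF, tracheal and adult muscle precursor lists, with filled points for an adjusted p under 0.05. In the FGF panel bnl lies at 2.94 and htl at -1.47, and in the EGF receptor panel only vn is filled.

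Genes with the most similar profile were sought among 2170 named genes, by the root mean square difference of values over the 8 arrays after each transcript was centred on its own mean. Closest to bnl-PA were upd3 at 0.106, a JAK/STAT ligand gene, bdl at 0.118, Cpr64Ac at 0.136, a cuticle protein gene, os at 0.144 and wun2 at 0.147. Their differences between genotypes lay near that of bnl, with 2.93 for upd3 and 3.13 for bdl. Closest to htl-PB were Alp1 at 0.091, ergic53 and the fructose bisphosphatase gene fbp at 0.092, GstS1 at 0.099 and Glut1 at 0.100. The log2 differences of these 5 lay between -1.58 for Glut1 and -1.44 for ergic53. Closest to vn-PB were S6k, the S6 kinase gene, and spir at 0.058, Spn55B at 0.062, Rab9 at 0.066 and dar1 at 0.069. Since most of each profile is the step between genotypes, this likeness mainly ranks genes by the size of that step and is a description over 8 arrays only.

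**Figure D4:**
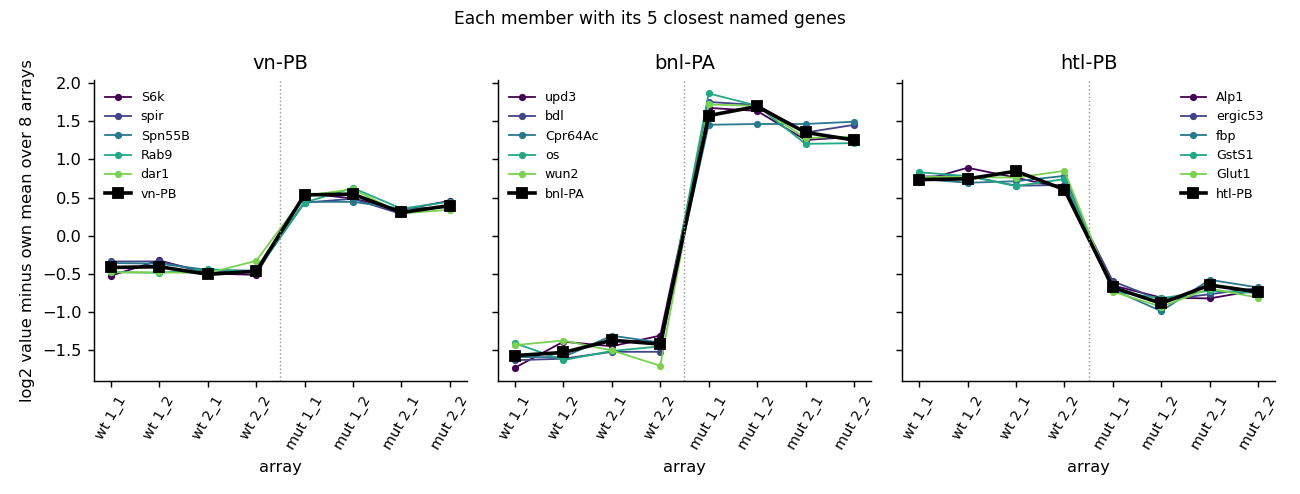
Log2 values centred on each transcript's own mean (y axis) over the 8 arrays (x axis) for vn-PB, bnl-PA and htl-PB (black squares) and their 5 closest named genes (coloured lines). The root mean square differences from the member are 0.147 or less, and the step between wildtype and mutant makes up most of each profile.

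The genes next to the members on the chromosome were also looked up, because BEAF-32 is a boundary protein. Of 6 protein-coding neighbours in the RefSeq annotation, 2 were listed by the authors: CG5568 beside vn and Acsx4 beside bnl. The CG5568 arrays read 8.24 to 9.30 in wildtype and 9.26 to 9.68 in the mutant, and overlapped (log2 difference 0.73, limma adjusted p = 0.25). The Acsx4 arrays read 7.67 to 8.39 and 8.31 to 8.70, and also overlapped (0.59, limma adjusted p = 0.22). Neither neighbour of htl, CG7794 and bard, was in the table.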

How the data were processed

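The deposited value table holds log2 values made by the authors; RMA and Partek are named, without versions, in the submitters' processing notes. The genome build and the probe design were not given in the sources used here. The authors' deposited table gives a ratio of wildtype over mutant, signed fold changes (the fold column), p-values and F statistics as scores; differences here are mutant minus wildtype, the opposite sense. The F statistics fit 5 and 6 degrees of freedom, or 12 arrays, so its p-values come from more than the 8 arrays used here and are not printed. Transcript names come from that table, updated through a RefSeq table (Release 6 plus ISO1 MT): of 3850 gene identifiers 2541 matched by symbol and 1079 by synonym.

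Arrays of a genotype sharing the first number were averaged. limma 3.58.1 (R 4.3.3) fitted genotype over all 16637 transcripts, with 2 residual and 2.23 prior degrees of freedom, and p-values were adjusted by Benjamini-Hochberg with a threshold of 0.05. The step was run on simulated data with independent errors and known changes, as a check of the code and not of the calls. A gene in a list is represented by its listed transcript with the highest mean. Python 3.11.15 made the other tables. The number of arrays limits the precision.

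Members and lists were chosen with earlier results of these data known. Text names every listed member and pathway gene, up to 4 markers per list by p, the 5 closest profiles per gene and the listed neighbours. The markers vvl, Mlc1, Mlp60A, FASN1 and Lsp1gamma were added after their values were seen. Replicate definition, pairing, left-out arrays, scaling, filtering and transcript choice were varied.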

Additional observations from a re-analysis of the deposited data

Results flagged for a closer look

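In 54 groups of 4 arrays, covering the members, BEAF-32, the listed pathway genes and neighbours and the listed tracheal and muscle markers, 4 had an array set apart from the other 3 by Dixon's test. Chance flags about 1 in 20 groups of independent arrays, and arrays that share a first number are not independent. The BEAF-32 transcript read 11.94 on wildtype array 1_2, against 10.09 to 10.28 on the other wildtype arrays. For dally-PA wildtype array 2_2 read 13.05, against 13.10 to 13.11, and mutant array 1_1 read 13.81, against 13.70 to 13.71. For the verm transcript LCBP1-PA wildtype array 1_2 read 12.98, against 13.14 to 13.16. No member transcript was set apart in this way.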

How the results depend on the processing

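The genotypes did not overlap for any of the 4 member transcripts, so leaving out arrays or replicates could not reverse a direction. Regrouping the arrays left the log2 differences as they were. The differences of the 4 member transcripts kept their direction under every alternative run. They ranged from 2.78 to 3.10 for bnl-PA, -1.53 to -1.41 for htl-PB, 1.05 to 1.56 for vn-PA and 0.80 to 0.99 for vn-PB. Their calls in limma were lost without mutant replicate 1 or 2, where adjusted p ranged from 0.058 to 0.30, and vn-PA also narrowly without wildtype array 2_1 or mutant array 2_1 (0.051 each). The main counts were 647 transcripts higher and 1012 lower. With arrays sharing the second number averaged they were 7148 and 5744, with 8 separate arrays 4203 and 3963, and with a random block for the first number 1730 and 2178. Leaving out a replicate or array gave 0 to 2685 higher and 0 to 2648 lower; the 0 came without mutant replicate 1 (2353 at an unadjusted p under 0.05, limma) and the highest without wildtype replicate 2. Without mutant replicate 2 there were 3 and 18. In the EGF receptor list the 1 called gene became 6, 6 and 5 under the first 3 of these settings, 2 with quantile normalization, with arrays centred on their medians or without the lowest quartile, and 0 to 4 when a replicate was left out. In the FGF list the 3 called genes became 5 with the second number averaged or 8 separate arrays, and 0 to 4 when a replicate was left out. With the first number as a replicate block, counts were 1011 higher and 1383 lower and the EGF receptor list had 3 called genes. The labels do not say that the number pairs genotypes; deviations of the same number correlated at 0.3018 over transcripts. The cause of these shifts was not tested, except that leaving out a replicate leaves fewer samples and takes the spread largely from the other genotype. A lone replicate was assumed to vary like the other genotype. No signal over background per array was at hand, which limits what can be said of low values.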
